A study of Mus musculus with 6 samples.

Results

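Solute carriers are membrane proteins that move small molecules and ions across cell and organelle membranes, and their names give a family number, a letter and a member number. The 155 genes described here are the rows of the deposited table whose symbol has that form, out of 8390 genes listed in all; they fall into 41 families, 9 of which have 1 member in the table. A further 10 rows that start with the same letters but have another form, such as the Slco genes, are not among them, and Slc10a1, Slc39a14, Slc25a20 and Slc27a2 were left out by the rule. RNA was measured by sequencing in whole livers of C57BL/6 mice, an inbred strain. The LV group has 3 samples from mice that received 3e8 transducing units of a lentiviral vector into a vein, with the liver taken 4 h later. The untreated group has 3 samples, and none of the samples comes from a mock injection, so effects of vector and of injection cannot be told apart. The labels do not state the vector's cargo or the age and sex of the mice, nor that the 3 samples of a group came from separate mice, and p-values measure only the spread between these samples.

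Hepatocytes live by exchange with the blood: glucose, amino acids, organic cations, bile salts and metals enter or leave through carriers of the plasma membrane. A large family of carriers in the inner mitochondrial membrane, SLC25, passes metabolites between the cytosol and the matrix, and other carriers serve lysosomes, the Golgi apparatus and the endoplasmic reticulum. During inflammation the liver is known to alter its handling of iron, zinc and amino acids, and some lysosomal carriers support the sensing of nucleic acids by Toll-like receptors.

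The deposited values are whole numbers that look like read numbers scaled to library size and to transcript length before rounding, so a level is quoted in that unit and levels of different genes are compared only on that per-length scale. Column sums lay between 497295 and 526009 and are not read totals; depth is unknown. Hepatocyte markers were at high levels in every library (Alb between 41700 and 69728). No gene of the T or NK cell, B cell, neutrophil or platelet marker lists was among the genes listed. Of 8 monocyte markers sought 1 was listed, Lyz2, with 86, 101 and 66 in LV against 64, 50 and 51 in untreated livers (limma adjusted p = 0.174). Only 7 to 20 of the listed genes were at 0 in a given library. The list therefore holds few genes at the floor, and an unlisted marker does not show that its cells were absent. LV replicate 3 and untreated replicate 2 stood apart from the rest in male-biased liver genes: Elovl3 was 169 and 159 there and at most 4 in the other libraries. Of the 155 carriers, 13 had both of these libraries above the other 4 and 7 had both below, shares of 8.39% and 4.52% beside 11.04% and 5.74% of all genes tested.

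Carrier levels spanned a wide range, and a few genes made up most of the summed level. The mean over the 6 libraries ran from 1.33 for Slc4a7 to 1073 for Slc38a3, with a median of 12.8. The 15 carriers with a mean of at least 100 held 58.3% of the summed level of all 155. Slc38a3, a glutamine transporter of hepatocytes, had 943, 1062 and 1085 in the LV libraries and 1026, 1317 and 1003 in the untreated ones, 16.8% of the summed level by itself. Slc27a5, which attaches coenzyme A to bile acids, had 458, 493 and 536 against 536, 550 and 546, the second highest level. Below these came Slc38a4, another amino acid transporter (mean 268), the ornithine carrier Slc25a15 (216), the phosphate carrier Slc25a3 (203) and Slc25a39 (199). Among them the groups did not overlap only for Slc25a39, whose LV values of 192, 193 and 187 lay just below 207, 198 and 216. At the other end 25 carriers had a mean under 5, where rounding to whole units leaves only coarse differences.

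**Figure D1:**
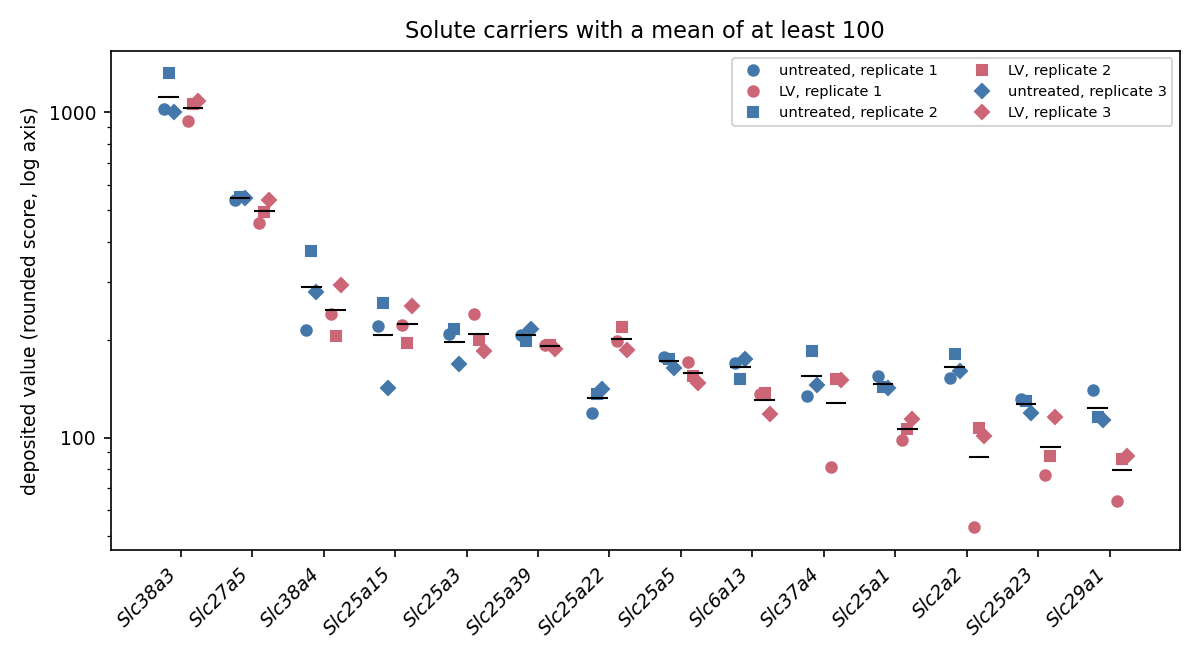
Deposited values (log axis) of 14 of the 15 solute carriers with a mean of at least 100, by library, with untreated libraries in blue, LV libraries in red, marker shape for the replicate number and black bars for group means. Slc38a3 lies between 943 and 1317 and Slc27a5 between 458 and 550. Slc2a2, Slc25a1, Slc25a23, Slc29a1, Slc6a13 and Slc25a39 have all LV points below all untreated points.

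Few carriers were called, and their share was close to that of all genes. In limma, 5 of 155 were higher and 2 lower at a Benjamini-Hochberg adjusted p under 0.05, and 148 did not pass; the 7 calls are 4.52% of the carriers, and 4.63% of all genes tested were called. By direction, 3.23% of carriers were higher and 1.29% lower, beside 3.76% and 0.87% of all genes. The median log2 fold change, the LV mean minus the untreated mean of log2(value + 1), was -0.14 for the carriers and -0.07 for all genes. More carriers lay below than above, counting called and uncalled ones together: all LV values were below all untreated values for 34 carriers (21.9%; 11% of all genes) and above them for 17 (10.97%; 8.65% of all genes). At an unadjusted p under 0.05, 33 carriers were lower (21.3%; 10.3% of all genes) and 18 higher (11.6%; 9.21% of all genes). Another scaling moved the split of calls: 10 higher and 1 lower with median of ratios scaling, 7 and 1 with quantile normalization, and 7 and 0 with scaling to the same total. In that order, 6.45%, 4.52% and 4.52% of carriers were higher, beside 4.88%, 4.04% and 4.25% of all genes. The lower calls were 0.65%, 0.65% and 0% of carriers, beside 0.81%, 0.89% and 0.94% of all genes. Leaving out LV replicate 1, or LV replicate 2 in its place, ended all 7 calls. Calls over all genes also fell, from 315 higher and 73 lower to 149 and 25 without LV replicate 1 and to 119 and 10 without LV replicate 2. Leaving out LV replicate 3 gave 4 higher (2.58%) and 5 lower (3.23%), beside 3.73% and 1.38% of all genes. Leaving out both LV replicate 3 and untreated replicate 2 gave 2 higher (1.29%) and 6 lower (3.87%), beside 3.65% and 1.62% of all genes.

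**Figure D2:**
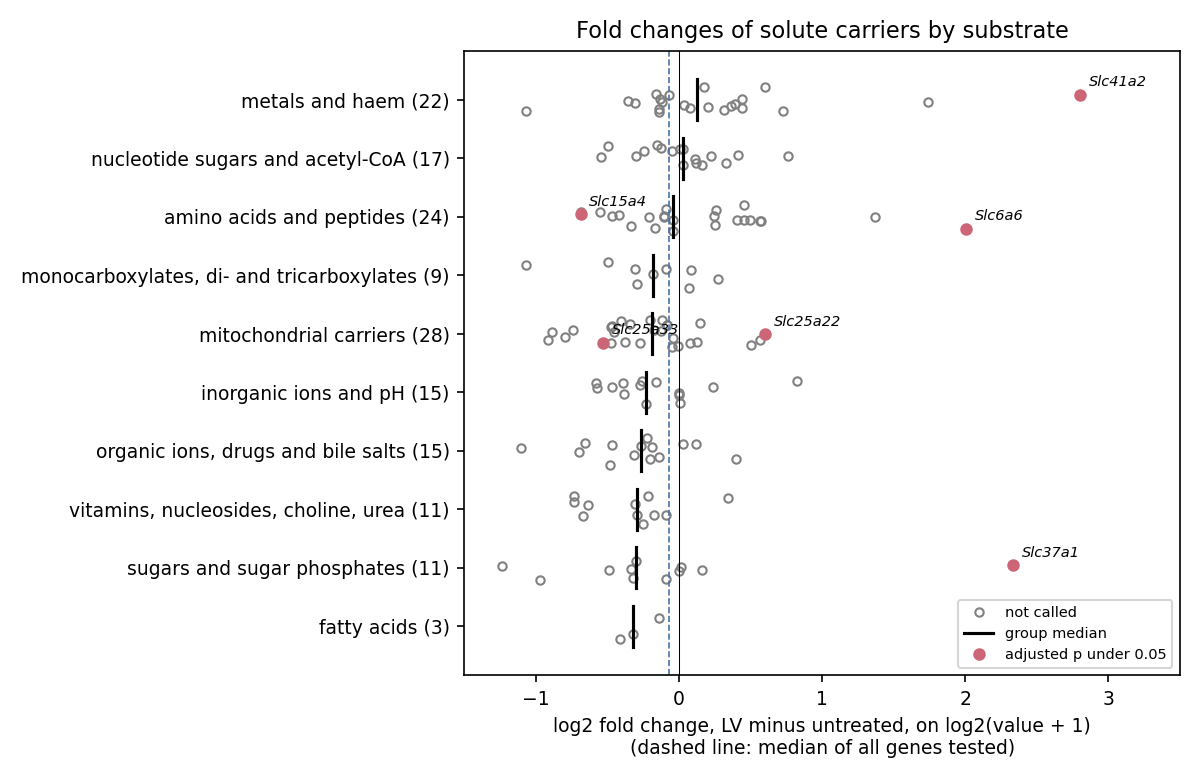
Log2 fold changes (LV minus untreated, on log2(value + 1)) of the carriers, grouped by substrate with the number of genes in brackets, with 2 of the 155 not drawn; filled red points passed an adjusted p under 0.05, black bars are group medians and the dashed line is the median of all genes tested (-0.07). Slc41a2, Slc37a1 and Slc6a6 lie at 2.01 or above, and the median of most groups lies below 0.

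Of the 5 called increases, 4 are described here, in carriers of taurine, a sugar phosphate, magnesium and glutamate. Slc6a6, the sodium- and chloride-coupled taurine transporter, had 123, 114 and 100 in the LV libraries and 27, 35 and 21 in the untreated ones. The groups were far apart, with means of 112 ± 11.6 and 27.7 ± 7.02 (SD, n = 3), and on the log2 scale the gene rose by 2.01 ± 0.20 (SE; limma adjusted p = 0.0066). Leaving out LV replicate 1 or LV replicate 2 ended the call (adjusted p = 0.0503 and 0.0520), and leaving out both LV replicate 3 and untreated replicate 2 did not (0.0342). Slc37a1, an exchanger of glucose 6-phosphate for phosphate in the endoplasmic reticulum, had 13, 16 and 12 against 2, 1 and 3. From a level near the smallest unit it rose by 2.34 ± 0.27 on the log2 scale (limma adjusted p = 0.0109; 0.0564 when LV replicate 3 and untreated replicate 2 are both left out), and its mean was 6.83 times that of untreated livers. Slc41a2, a magnesium transporter, had 40, 24 and 19 against 4, 5 and 1. It had the largest fold change of the 155 carriers (2.81 ± 0.50, limma adjusted p = 0.0437), and its LV values spread from 19 to 40.

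A smaller increase was called for a carrier of much higher level. Slc25a22, a mitochondrial glutamate carrier, had 198, 219 and 186 with the vector against 119, 136 and 141 without it, and rose by 0.60 ± 0.11 on the log2 scale (limma adjusted p = 0.0428). Its groups did not overlap. With any 1 library left out, Slc25a22 and Slc41a2 had adjusted p values from 0.0595 to 0.165, and Slc37a1 kept its call without LV replicate 3, untreated replicate 2 or untreated replicate 3 but had 0.0697 to 0.0711 without the others. With both LV replicate 3 and untreated replicate 2 left out, they were 0.135 for Slc25a22 and 0.141 for Slc41a2.

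Both called decreases were in genes of low level. Slc15a4, a peptide and histidine transporter of endolysosomes, had 8, 8 and 6 against 12, 13 and 12. It fell by 0.69 ± 0.13 on the log2 scale (limma adjusted p = 0.0489). Slc25a33, a pyrimidine nucleotide carrier of mitochondria, had 7, 7 and 8 against 11, 11 and 11 and fell by 0.53 ± 0.08 on the log2 scale (limma adjusted p = 0.0310). With 1 library left out, each kept its call only without LV replicate 3, and otherwise had adjusted p values from 0.0706 to 0.145. Leaving out both LV replicate 3 and untreated replicate 2 kept both calls (0.0362 and 0.0294), while over the other scalings the adjusted p ran from 0.0474 to 0.0557 for Slc15a4 and from 0.0456 to 0.0636 for Slc25a33. In the GENCODE M21 annotation, opposite-strand genes share 20.3% of the exon bases of Slc37a1, 15.6% of those of Slc15a4 and 14.9% of those of Slc25a33. Those partners are not among the genes listed. Slc4a2 and Slc15a3, described below, share 14.9% and 4.01% with the opposite-strand protein-coding genes Fastk and Tmem132a, which are listed. No source used here says whether reads were counted by strand, so reads from such partners cannot be told apart from the carrier's own.

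**Figure D3:**
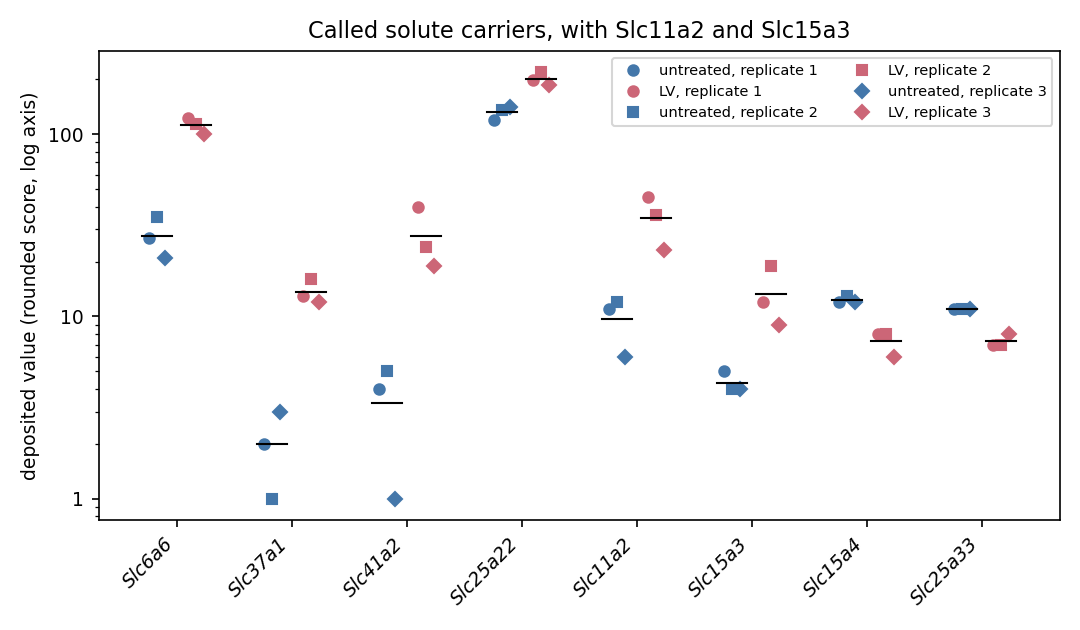
Deposited values (log axis) of 6 of the 7 called carriers and of Slc11a2 and Slc15a3, by library, with untreated in blue, LV in red, marker shape for the replicate number and black bars for group means. In all 8 genes the LV and untreated points do not overlap; LV replicate 3 is the lowest LV library for Slc6a6, Slc37a1, Slc41a2, Slc25a22, Slc11a2, Slc15a3 and Slc15a4.

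The 250 bases before the annotated start of called carriers are printed to show where short motifs tied to interferon and metal responses occur. They are RefSeq promoters of build GRCm38.p6, which is not the build named for the deposited table. Of the 155 carriers, 121 matched an entry, 1 of them by a synonym, and Slc6a6 has no entry. The entries matched to Slc23a1 and Slc23a2 have the same chromosome, strand and base composition. The shares given below may therefore count the same promoters more than once. The motifs searched, on both strands, were GAAA repeated after a gap of any 2 bases, bound by interferon regulatory factors, TTCNNNGAA, bound by STAT proteins, and TGCNCNC, the core of the metal response element; none of them overlapped in the sequences shown. Capitals mark the matches.
Slc37a1 (chr17:31295974-31296223, plus strand): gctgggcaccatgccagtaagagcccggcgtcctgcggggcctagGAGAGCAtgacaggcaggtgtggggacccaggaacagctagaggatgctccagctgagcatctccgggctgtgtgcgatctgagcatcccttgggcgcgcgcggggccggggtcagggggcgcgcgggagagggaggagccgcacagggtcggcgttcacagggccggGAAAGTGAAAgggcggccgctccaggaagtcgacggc
Slc25a22 (chr7:141435376-141435625, minus strand): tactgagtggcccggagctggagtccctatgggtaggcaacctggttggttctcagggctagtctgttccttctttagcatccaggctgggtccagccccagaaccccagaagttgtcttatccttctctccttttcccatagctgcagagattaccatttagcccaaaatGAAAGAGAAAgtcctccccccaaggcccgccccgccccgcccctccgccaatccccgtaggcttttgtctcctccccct
Slc41a2 (chr10:83337818-83338067, minus strand): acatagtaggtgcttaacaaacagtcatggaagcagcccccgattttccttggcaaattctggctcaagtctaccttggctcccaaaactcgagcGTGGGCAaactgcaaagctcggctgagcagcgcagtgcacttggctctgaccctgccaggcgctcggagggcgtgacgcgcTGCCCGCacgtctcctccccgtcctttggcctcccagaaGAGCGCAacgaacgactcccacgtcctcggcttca
Slc15a4 (chr5:127617393-127617642, minus strand): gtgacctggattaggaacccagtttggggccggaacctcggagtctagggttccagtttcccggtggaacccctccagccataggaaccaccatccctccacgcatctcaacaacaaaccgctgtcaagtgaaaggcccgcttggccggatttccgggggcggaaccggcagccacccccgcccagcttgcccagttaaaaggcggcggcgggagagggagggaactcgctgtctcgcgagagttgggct
Slc25a33 (chr4:149774268-149774517, minus strand): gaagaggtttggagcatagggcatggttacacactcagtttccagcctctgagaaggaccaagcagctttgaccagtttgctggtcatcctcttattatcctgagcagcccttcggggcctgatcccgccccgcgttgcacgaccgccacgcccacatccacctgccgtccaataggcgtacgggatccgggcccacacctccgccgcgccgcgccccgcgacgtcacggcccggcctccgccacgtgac
In the Slc37a1 promoter the interferon regulatory factor motif begins at base -37 and a metal response motif at -205, counted from the start. Slc25a22 has 3 entries, and the one shown holds the interferon regulatory factor motif, beginning at -79, while the others hold no such motif and a metal response motif each, at -36 and -12. Slc41a2 holds 3 metal response motifs, beginning at -155, -74 and -35, and no match to the other motifs. The promoters of the lowered genes Slc15a4 and Slc25a33 hold no match. The interferon regulatory factor motif occurs in 1.72% of 174 carrier promoters and 2.98% of 32851 promoters in all, the STAT motif in 4.02% and 7.02%, and the metal response motif in 51.7% and 44.4%. The median share of G and C bases was 59.8% in carrier promoters and 52.4% in all promoters. The part of base composition in the motif shares was not tested. A match is a description of the letters and not a site of binding.

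Carriers of amino acids and peptides (families SLC1, SLC3, SLC6, SLC7, SLC15, SLC36, SLC38 and SLC43) counted 24, of which 1 was called higher (Slc6a6), 1 lower (Slc15a4) and 22 did not pass; the median log2 fold change was -0.04 (0.01 with median of ratios scaling). Slc15a3, the other SLC15 gene in the table and likewise a lysosomal peptide and histidine transporter, had 12, 19 and 9 in LV against 5, 4 and 4 in untreated livers. The groups did not overlap, and the log2 fold change of 1.37 ± 0.27 had a limma adjusted p of 0.0570 (0.0426 without LV replicate 3, and between 0.0197 and 0.0454 with the other scalings). The members of this family therefore had fold changes of opposite sign, 1 of them called; their difference was not tested. Slc6a13, a transporter of GABA and taurine in the same family as Slc6a6, had 136, 137 and 118 against 170, 151 and 174 (log2 fold change -0.34, adjusted p = 0.152). The main glutamine and neutral amino acid transporters had overlapping groups: Slc38a3 had a log2 fold change of -0.11, Slc38a4 of -0.21 and Slc38a2 of 0.26, with adjusted p values from 0.646 to 0.713. Slc7a2, which carries arginine, had 65, 53 and 71 against 50, 87 and 68. Slc3a2, the heavy chain shared by several amino acid exchangers, had 21, 24 and 16 against 22, 16 and 25. Slc43a3, a purine nucleobase transporter counted here by its family number, had 15, 21 and 19 against 11, 13 and 12 (log2 fold change 0.56, adjusted p = 0.110).

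Carriers of sugars and sugar phosphates (SLC2, SLC5, SLC37 and SLC45) counted 11: Slc37a1 was called higher and 10 did not pass. A negative fold change was seen in 7 (63.6%, beside 58% of all genes), and the median was -0.30 (-0.07 for all genes). Slc2a2, the main glucose transporter of hepatocytes, had 53, 107 and 101 against 152, 181 and 160. Every LV value was below every untreated one, and LV replicate 1 was the lowest by a wide margin (87.0 ± 29.6 against 164 ± 14.98; log2 fold change -0.97 ± 0.29, limma adjusted p = 0.149). Slc37a4, the glucose 6-phosphate translocase that serves glucose release, had 81, 151 and 150 against 134, 185 and 145, with overlapping groups. Slc2a9, which carries urate, had 19, 21 and 27 against 33, 35 and 27 (adjusted p = 0.194). Slc5a6, a transporter of biotin and pantothenate and the only SLC5 gene in the table, had 2, 2 and 2 against 3, 7 and 10. That was the most negative fold change of the 155 (-1.23 ± 0.37, adjusted p = 0.154, and 0.0273 without untreated replicate 1). Slc37a2 and Slc37a3, the other relatives of Slc37a1, had fold changes of 0.01 and 0.16 on the log2 scale.

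**Figure D4:**
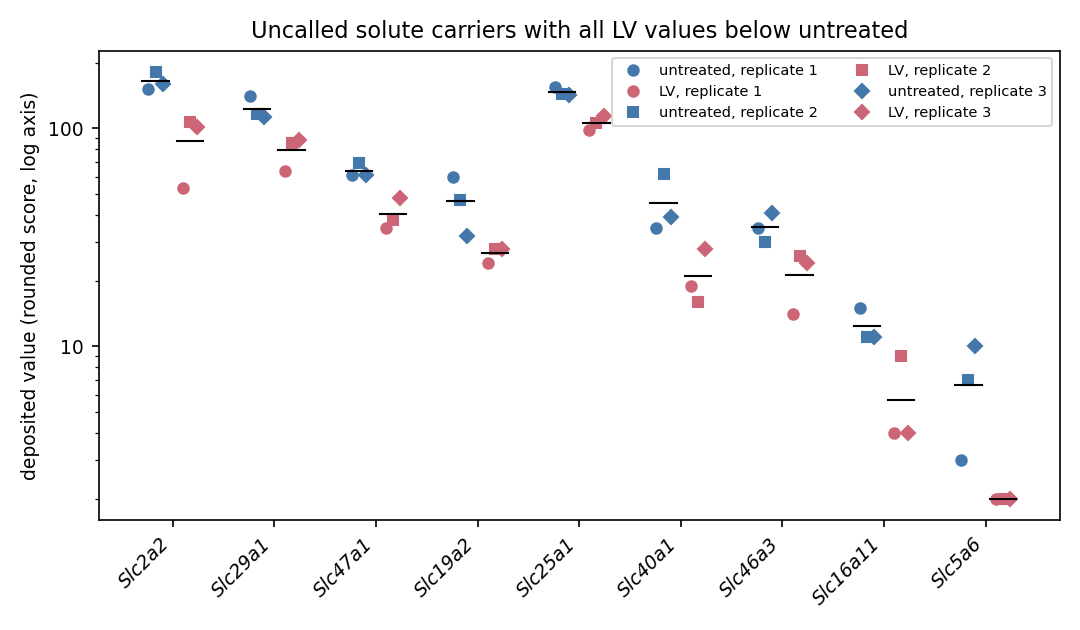
Deposited values (log axis) of 9 carriers that did not pass the test although all 3 LV values lay below all 3 untreated values, with untreated in blue, LV in red, marker shape for the replicate number and black bars for group means. For Slc2a2, Slc29a1, Slc47a1, Slc19a2, Slc25a1 and Slc46a3 LV replicate 1 is the lowest point. The members shown were selected after their values were seen.

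Mitochondrial carriers (SLC25) were the largest family, with 28 members, of which 1 was higher (Slc25a22), 1 lower (Slc25a33) and 26 did not pass. A negative fold change was seen in 22 of 28, and the median was -0.19; 58% of all genes had a negative fold change. All LV values lay below all untreated values in 9 of 28 (32.1%; 11% of all genes). The citrate carrier Slc25a1, which exports citrate for fatty acid synthesis, had 98, 106 and 114 against 155, 143 and 142. Its groups were well separated (log2 fold change -0.47 ± 0.09), and its limma adjusted p was 0.0517. The aspartate-glutamate carrier Slc25a13 had 65, 70 and 69 against 71, 80 and 85 (adjusted p = 0.297). Slc25a15, which brings ornithine into the matrix for the urea cycle, had 222, 196 and 253 against 220, 260 and 142, and Slc25a5, an ADP/ATP carrier, 171, 155 and 147 against 177, 175 and 164. In both the groups overlapped. The iron importers of mitochondria differed in sign: Slc25a28 (mitoferrin-2) had 44, 32 and 29 against 20, 25 and 24 (log2 fold change 0.57, adjusted p = 0.176), and Slc25a37 (mitoferrin-1) had 8, 13 and 13 against 14, 22 and 8 (-0.27, adjusted p = 0.729). Slc25a4, another ADP/ATP carrier, had 28, 19 and 4 against 22, 6 and 19, lowest in the same pair of libraries that had high Elovl3.

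Carriers of metals and haem (SLC11, SLC30, SLC31, SLC39, SLC40, SLC41 and SLC48) counted 22 and had a positive median log2 fold change, 0.12, which ranged from 0.12 to 0.17 over the other scalings; Slc41a2 was called higher and 21 did not pass. Slc11a2, which takes up ferrous iron, had 45, 36 and 23 against 11, 12 and 6. The groups did not overlap and the mean was 3.59 times higher, but the spread among the LV libraries was large (log2 fold change 1.74 ± 0.34, limma adjusted p = 0.0575, and 0.0132 to 0.0320 with the other scalings). Slc40a1, ferroportin, the exporter of iron, had 19, 16 and 28 against 35, 62 and 39, a ratio of means of 0.463 (log2 fold change -1.07 ± 0.29, adjusted p = 0.129). Ferroportin is prominent in Kupffer cells, and the summed level of the 10 Kupffer cell markers in the table, of 12 sought, was 135 to 315 in LV and 248 to 368 in untreated livers, lowest in LV replicate 1; their part in the value of Slc40a1 was not tested. The summed level of 11 sinusoidal endothelial markers was 136, 237 and 212 in LV replicates 1, 2 and 3 against 269, 249 and 240, so that every LV library was below every untreated one and LV replicate 1 was again lowest. None of these 11 was called, and 8 had a negative and 3 a positive fold change, while 58% of all genes had a negative one. Clec4g had the most negative, with 11, 43 and 33 against 55, 54 and 58. Lyve1 went the other way without overlap, with 10, 5 and 5 against 3, 3 and 2. The part of these markers in the values of the carriers with lower LV levels was not tested. None of the 10 Kupffer cell markers was called, 8 of 10 had a negative fold change (58% of all genes), and none was at 0 in any library. In whole-liver RNA, fewer cells of a type and less RNA per cell cannot be told apart. Hamp, the hormone that removes ferroportin from the membrane, had 638, 446 and 1247 against 65, 674 and 236 (adjusted p = 0.365).

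Slc11a1, the metal transporter of macrophage phagosomes, had 3, 6 and 4 against 5, 4 and 3. Among zinc transporters, Slc30a5, which loads zinc into the secretory pathway, had 21, 19 and 16 against 9, 14 and 10 (log2 fold change 0.73 ± 0.19, adjusted p = 0.113, and 0.0472 to 0.0924 with the other scalings). Slc39a1, a zinc importer of the plasma membrane, had 37, 35 and 26 against 22, 21 and 20 (0.60 ± 0.15, adjusted p = 0.102, and 0.0206 without LV replicate 3). For both, every LV value was above every untreated one. Slc30a1, the zinc exporter, had 8, 10 and 10 against 8, 13 and 9, and Slc39a8, an importer of zinc and manganese, 8, 9 and 10 against 10, 11 and 9, so that neither group was separated. Slc31a1, the copper importer, was steady across libraries with 63, 63 and 67 against 62, 70 and 57.

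Carriers of inorganic ions (SLC4, SLC9, SLC12, SLC20, SLC24 and SLC26) counted 15: 1 was called higher, 14 did not pass and the median log2 fold change was -0.23. Slc4a4, a sodium bicarbonate cotransporter, had 26, 18 and 19 against 11, 13 and 10 (0.82 ± 0.17, limma adjusted p = 0.0709, and 0.0242 to 0.0494 with the other scalings). Slc4a2, a chloride-bicarbonate exchanger, had 10, 10 and 9 against 14, 13 and 12, separated in the other direction (-0.39 ± 0.09, adjusted p = 0.0931). Slc12a4 and Slc12a7, potassium-chloride cotransporters, also differed in sign, with 10, 10 and 10 against 8, 8 and 9 and with 26, 29 and 35 against 39, 43 and 36. Neither passed (adjusted p = 0.193 and 0.206).

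Carriers of organic ions (SLC10, SLC17, SLC22 and SLC47) counted 15, with 0 calls, 1 higher and 3 lower at an unadjusted p under 0.05, and a median log2 fold change of -0.27. Slc47a1, which secretes organic cations into bile, had 35, 38 and 48 in LV against 61, 69 and 61 in untreated livers (-0.66 ± 0.14, limma adjusted p = 0.0711; 0.0299 without LV replicate 3). Slc22a7, an organic anion transporter, varied as much within groups as between them, with 9, 40 and 15 against 41, 15 and 41. Carriers of vitamins, nucleosides and choline (SLC19, SLC23, SLC28, SLC29, SLC44 and SLC46) counted 11, again with 0 calls; 4 were lower and 0 higher at an unadjusted p under 0.05, 10 had a negative fold change and the median was -0.29. Over all genes 10.3% were lower and 9.21% higher at that p, and 58% had a negative fold change. Slc29a1, the main equilibrative nucleoside transporter, had 64, 86 and 88 against 140, 116 and 113 (-0.63 ± 0.16, adjusted p = 0.109). Slc19a2, a thiamine transporter, had 24, 28 and 28 against 60, 47 and 32, and Slc46a1, which carries folate, had 28, 33 and 34 against 43, 37 and 38. Their groups did not overlap, with adjusted p values of 0.178 and 0.215.

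Monocarboxylate and dicarboxylate carriers (SLC13 and SLC16) counted 9, with 0 calls, 0 higher and 2 lower at an unadjusted p under 0.05. At that p, here and for the groups below, 9.21% of all genes were higher and 10.3% lower. Slc16a1, the widespread lactate transporter, was even across libraries with 17, 15 and 12 against 14, 14 and 13, whereas Slc16a11 had 4, 9 and 4 against 15, 11 and 11 (log2 fold change -1.07, limma adjusted p = 0.148). The 3 fatty acid carriers (SLC27) had 0 calls, 0 higher and 2 lower at an unadjusted p under 0.05. Slc27a4 had 11, 11 and 11 against 14, 14 and 14, so that no spread was measured within groups (adjusted p = 0.0697). Carriers of nucleotide sugars and acetyl-CoA (SLC33 and SLC35), which feed glycosylation and acetylation in the secretory pathway, counted 17, with 0 calls. At an unadjusted p under 0.05, 2 were higher and 2 lower (11.8% each), near the shares of all genes. Slc35f5 had 33, 24 and 21 against 14, 16 and 14 (0.76 ± 0.18, adjusted p = 0.0896, and 0.0442 to 0.0723 with the other scalings). Slc35b2, which carries the sulfate donor PAPS into the Golgi apparatus, had 15, 19 and 17 against 24, 22 and 27 (-0.49 ± 0.12, adjusted p = 0.104). Slc35d1, which carries UDP-glucuronate into the endoplasmic reticulum, had 51, 55 and 52 against 36, 59 and 34, with untreated replicate 2 the highest of all (adjusted p = 0.463, and 0.0357 without that library).

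The groups of carriers did not move alike in the 3 LV libraries. Relative to the untreated mean, the median of all 155 was -0.21, -0.08 and -0.09 in LV replicates 1, 2 and 3 and 0.03, 0.09 and -0.09 in the untreated replicates, so that LV replicates 2 and 3 lay near untreated replicate 3. For organic ions the LV medians were -0.50, -0.25 and -0.11, and untreated replicate 3 was at -0.14, within the LV range. For vitamins and nucleosides they were -0.46, -0.24 and -0.26, below the lowest untreated median of -0.08, and for mitochondrial carriers -0.27, -0.18 and -0.14, below -0.02. For metals the LV medians of 0.13, 0.19 and 0.07 overlapped the untreated ones, which ran from -0.14 to 0.13.

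**Figure D5:**
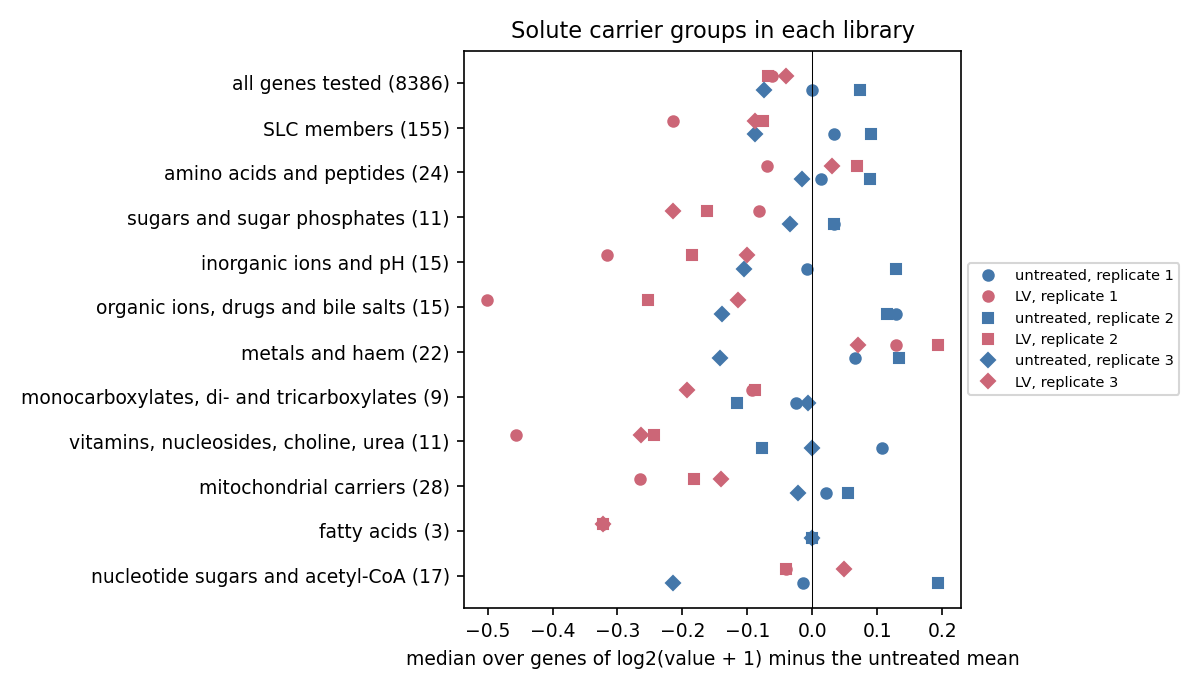
Median over genes of log2(value + 1) minus the untreated mean, for all genes tested, all 155 carriers (SLC members) and each substrate group, with untreated libraries in blue, LV libraries in red and marker shape for the replicate number. LV replicate 1 is the lowest library for all carriers, organic ions, vitamins and nucleosides, inorganic ions and mitochondrial carriers, and the LV points of metals overlap the untreated ones.

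Other transport proteins were counted in the same fit, in which 4.63% of all genes were called. At an unadjusted p under 0.05, 9.21% of all genes were higher and 10.3% lower. Of 32 ABC transporters, which pump substrates with ATP, 0 were called; 1 was higher and 5 lower at an unadjusted p under 0.05. None of 4 aquaporins, 14 vacuolar proton pump subunits and 13 P-type pumps was called in limma, and at an unadjusted p under 0.05 they had 0, 1 and 2 higher and 2, 0 and 3 lower. Of 6 Slco genes 1 was higher, Slco3a1, an organic anion transporter, with 8, 9 and 6 against 2, 2 and 2 (limma adjusted p = 0.0054). Of 27 measured carriers of solute carrier type under other names 2 were higher: Unc93b1, which escorts nucleic acid-sensing Toll-like receptors to endosomes, with 35, 37 and 35 against 26, 23 and 22 (adjusted p = 0.0291), and Sfxn2, a mitochondrial sideroflexin, with 28, 25 and 24 against 18, 14 and 15 (adjusted p = 0.0437). Of 18 measured partners and regulators of carriers 0 were called, with 3 higher and 2 lower at an unadjusted p under 0.05. Bsg, the chaperone of monocarboxylate transporters, had 300, 276 and 220 against 306, 224 and 295.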

How the data were processed

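Total RNA of 6 whole-liver samples was read from 1 table. Its unit is named by no label or header; it is handled as a score, since the authors' deposited numbers behave like reads divided by library size and transcript length, then rounded. The ratio of variance to mean among replicates was 0.236 (LV) and 0.224 (untreated) where the mean is between 2 and 5, under that of counted reads. Build mm9 comes from the submitters' processing notes, with aligner, annotation and counting method not given in the sources used here.

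Testing used R 4.3.3 and limma 3.58.1: log2(value + 1) by group, variance trend on, no covariate, two-sided, Benjamini-Hochberg over the 8386 genes (all 155 carriers among them) at 1 or more in 3 or more libraries. The script was tested on simulated data. Members, lists, substrate groups and motifs were chosen with earlier results of these data known. Named carriers were the called ones and the highest level and smallest p of each family of at least 3. A fixed set and the 5 fold changes at either end were also named. Slc2a9, Slc4a2, Slc4a7, Slc25a3, Slc25a4, Slc25a23, Slc25a39, Slc35b2 and Slc37a3 were added after their values were seen. Slc23a1 was named only for its promoter entries. Values of 2 carriers are not reported here, though both stay in the counts and medians. Alternatives left out libraries, added a replicate block, or changed pseudocount, filter, scaling, variance model or threshold.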

Additional observations from a re-analysis of the deposited data

How the results depend on the processing

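With single libraries left out, the count of carriers called higher ran from 0 to 4 (5 with all libraries) and of those called lower from 0 to 5 (2 with all libraries). Over all genes tested, the same counts ran from 119 to 313 (315 with all libraries) and from 10 to 116 (73 with all libraries). Without LV replicate 3 and untreated replicate 2 together there were 2 higher and 6 lower, and 306 and 136 over all genes. Deviations of same-numbered libraries from their group means correlated at 0.30, -0.48 and -0.35 over 6781 genes, against 0.63 for LV replicate 3 with untreated replicate 2. Within a group the deviations sum to 0 for each gene, so these correlations depend on each other. They cannot decide whether the replicate numbers of the titles pair the samples. A replicate block gave 2 higher and 0 lower carriers, and 145 higher and 11 lower over all genes. A pseudocount of 0.1 gave 4 higher, with Slc41a2 lost (adjusted p = 0.0672), and 1 lower. A filter at a mean of at least 5 gave 7 higher, Slc11a2 (adjusted p = 0.0285) and Slc15a3 (0.0305) among them, and 2 lower. These were 5.38% and 1.54% of the 130 carriers kept, beside 4.75% and 1.09% of all genes kept. Quantile normalization gave 1 lower, median of ratios scaling 10 higher and 1 lower, and scaling to the same total 0 lower. An adjusted p under 0.1 gave 10 higher (6.45%, beside 5.43% of all genes) and 8 lower (5.16%, beside 2.68%). Limma treat against a fold of 1.5 gave 2 higher (Slc6a6 and Slc37a1, 1.29% beside 1.62% of all genes) and 0 lower (0 of all genes). The causes of these differences were not tested. A pseudocount of 5, no filter and a fit without the trend left both counts at 5 and 2. The median log2 fold change of the carriers stayed between -0.19 and -0.09 in all settings that give one. Depth is unknown, and rounding limits what can be seen in the 25 carriers with a mean under 5.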
